A study of Mus musculus with 2 samples.

Results

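The 10 genes described here belong to the bone morphogenetic protein (BMP) and activin branch of growth factor signalling and were taken by symbol from the 55363 genes of the deposited expression files. They are the BMP ligand genes Bmp2, Bmp4 and Bmp7, the activin subunit genes Inhba and Inhbb, the follistatin gene Fst, the type I receptor genes Bmpr1a and Acvr1, and the type II receptor genes Bmpr2 and Acvr2a. Each symbol matched 1 row, and all 10 passed the minimum of 1 FPKM in at least one library that 16263 genes passed. FPKM counts sequenced fragments relative to gene length and to the library's mapped total. It is a level per length, so that genes can be compared within a library.

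Whole uterus was collected on gestational day 4, counted from the vaginal plug as the first day, from pregnant females aged 6 to 8 weeks that had been mated with fertile males. One group carried the Mettl14 genotype f/f and the other d/d, which in the usual notation are floxed and deleted alleles of the gene for an RNA-binding subunit of the N6-methyladenosine (m6A) writer complex. The labels name no promoter or Cre line behind the deletion, no strain, and no number of animals per library. There was 1 library per genotype, 2 in all, so no value has a replicate error, there is no test, and every difference is one between these libraries. A gene is called higher or lower in d/d where (FPKM + 1) differed by at least 2-fold, that is, where the log2 ratio, with f/f as the denominator, was at least 1 in size.

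BMPs and activins are secreted dimers of the transforming growth factor beta superfamily. A dimer brings type I and type II receptor kinases together, and the type I kinase then phosphorylates Smad proteins, which carry the signal to the nucleus. BMP receptors act mainly through Smad1 and Smad5, and activin receptors through Smad2 and Smad3. Follistatin is a secreted protein that binds activins tightly, and some BMPs less tightly, and keeps them from their receptors. In the mouse uterus Bmp2 is needed for stromal cells to become decidual cells after embryo attachment, and loss of uterine Fst, Bmp7, Acvr1, Bmpr1a or Bmpr2 impairs implantation or later pregnancy.

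Both ends of the list lay far apart in the d/d library. The follistatin gene Fst was 72.0-fold lower, the activin beta B subunit gene Inhbb was 34.4-fold higher, Bmp2 was lower and Inhba was higher, while the receptors stayed within 2-fold. Both folds are of FPKM itself. On the (FPKM + 1) scale of the rule the log2 ratios were -5.03 for Fst and 4.86 for Inhbb. Fst was 0.800 FPKM in d/d, so it passed the 1 FPKM minimum through f/f alone. Of the 10 genes, 2 were higher and 2 were lower, beside 10.2% of the 16263 measured genes that were higher and 8.28% that were lower. The median log2 ratio of the 10 was 0.38, and that of all measured genes was -0.01 with quartiles of -0.41 and 0.41. The ratio was above 0 for 6 of the genes and below 0 for 4.

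**Figure D1:**
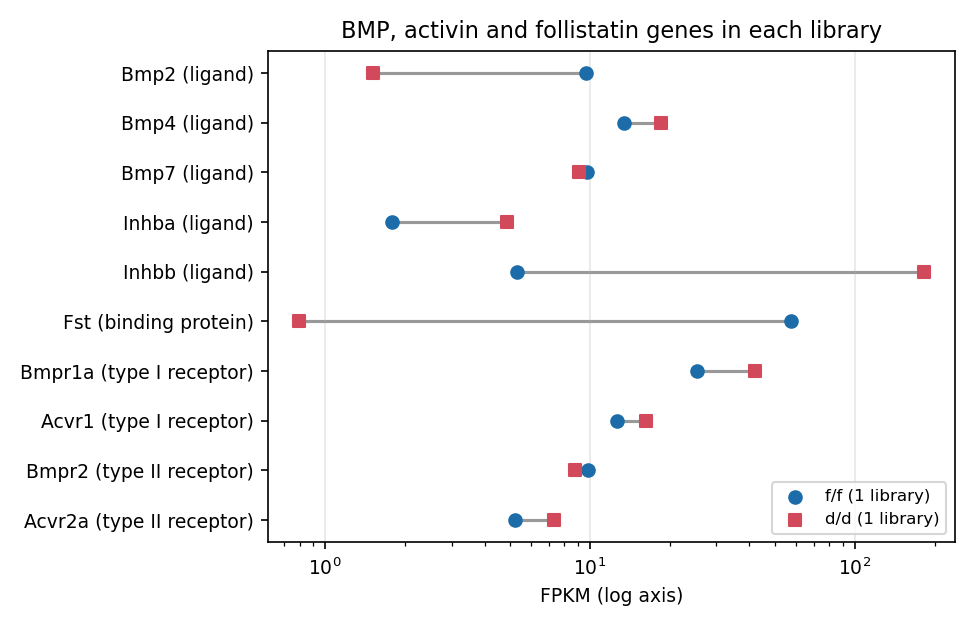
FPKM on a log axis for the 10 genes, with a circle for the f/f library and a square for the d/d library, 1 library each and no error bars. Fst, at 57.6 and 0.800 FPKM, and Inhbb, at 5.29 and 182 FPKM, span the widest gaps, and in opposite directions, whereas the symbols of Bmp7 and Bmpr2 nearly coincide.

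Fst encodes follistatin and is annotated on chromosome 13, minus strand, 114452290 to 114458951 (mm10, GENCODE M21, ENSMUSG00000021765). It was 57.6 FPKM in f/f and 0.800 FPKM in d/d, a 72.0-fold lower level and a log2 ratio of -5.03. In f/f it was the most abundant of the 10 genes and in d/d the least abundant. Only 23 of the 16263 genes, Fst included, had a ratio at or below its own. Over its longest coding transcript of 2833 nt the d/d value stands for about 46.8 fragments at the estimated depth, so it was low but not at 0. Over a shorter transcript, such as the one of 1851 nt used below for the motif search, it would stand for fewer.

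Inhbb encodes the beta B subunit, which forms activin B as a dimer and inhibin B together with the alpha subunit. The gene (chromosome 1, 119415465 to 119422248, minus strand, ENSMUSG00000037035) was 5.29 FPKM in f/f and 182 FPKM in d/d, which is 34.4 times as much and a log2 ratio of 4.86. Among the 10 genes it stood in place 8 by level in f/f and in place 1 in d/d. At or above its ratio lay 35 of the 16263 genes, Inhbb included. The beta A subunit gene Inhba (chromosome 13, 16011851 to 16031621, plus strand, ENSMUSG00000041324) was the least abundant of the 10 in f/f, at 1.79 FPKM, and was 4.85 FPKM in d/d. Its level was 2.70-fold higher and its log2 ratio of 1.07 passed the 2-fold rule narrowly. It was 0.99 with both libraries scaled to the same FPKM total and 0.54 with a pseudocount of 5 FPKM.

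The balance of follistatin and activin subunit transcripts therefore differed between the libraries. In f/f the Fst level was 8.14 times the summed level of Inhba and Inhbb, 57.6 against 7.08 FPKM. In d/d the summed subunits, at 187 FPKM, were 233 times the Fst level, which at 0.800 FPKM was under the 1 FPKM minimum. Inhbb exceeded Inhba 2.95-fold in f/f and 37.5-fold in d/d. Inha, the alpha subunit gene that turns a beta subunit into inhibin, was 1.19 FPKM in f/f and 1.20 FPKM in d/d. The remaining subunit genes, Inhbc and Inhbe, were listed at 0 in both. These are transcript levels, and protein was not analysed here.

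The promoter windows of the activin subunit genes are shown because these were the listed genes that were higher in d/d. They are 300 bases from RefSeq on GRCm38.p6, 5′ to 3′ on the gene's strand, 250 before to 50 after the start site, at chr13:16011601-16011900 for Inhba on the plus strand and chr1:119422199-119422498 for Inhbb on the minus strand. Capitals mark matches on either strand to TGACC, 1 arm of an estrogen receptor site, TGTTCT, 1 arm of a progesterone receptor site, or GGCGCC, a site bound by BMP Smads, and no match overlaps another.
Inhba: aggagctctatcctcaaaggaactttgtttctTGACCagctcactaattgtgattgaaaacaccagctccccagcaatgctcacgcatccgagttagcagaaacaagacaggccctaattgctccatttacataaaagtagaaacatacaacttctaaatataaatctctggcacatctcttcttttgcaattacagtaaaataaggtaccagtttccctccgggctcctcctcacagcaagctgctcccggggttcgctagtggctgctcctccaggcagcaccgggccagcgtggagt
Inhbb: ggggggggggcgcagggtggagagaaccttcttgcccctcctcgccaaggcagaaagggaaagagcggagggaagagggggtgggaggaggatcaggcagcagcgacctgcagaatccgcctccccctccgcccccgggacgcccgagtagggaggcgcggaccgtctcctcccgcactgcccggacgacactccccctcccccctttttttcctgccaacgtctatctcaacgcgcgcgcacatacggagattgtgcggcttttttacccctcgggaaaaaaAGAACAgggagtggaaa
The Inhba window held 1 estrogen receptor arm, whose first base lies 218 bases before the start site, a motif found in 40.5% of all 32851 RefSeq promoter windows. The Inhbb window held 1 progesterone receptor arm, on the strand opposite to the gene and beginning at base 34 of the transcript, a motif found in 19.0% of windows. Neither window held the Smad site letters, found in 11.9% of windows. GC content was 47.7% for Inhba and 64.3% for Inhbb, against a median of 52.7% over all windows. These letters describe the windows and were not measured as binding. Promoter windows were matched for 7 of the 10 genes, and those of Fst, Bmp2 and Bmp7 were not used here.

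Of the BMP ligands, Bmp2 alone passed the 2-fold rule. Bmp2 (chromosome 2, 133552159 to 133562885, plus strand, ENSMUSG00000027358) was 9.63 FPKM in f/f and 1.52 FPKM in d/d, a log2 ratio of -2.08. At or below that ratio lay 291 of the 16263 genes, 1.79%. Bmp4 (chromosome 14, 46383520 to 46390669, ENSMUSG00000021835), a ligand closely related to Bmp2, was 13.5 FPKM in f/f and 18.5 FPKM in d/d, with a log2 ratio of 0.43. Bmp7 (chromosome 2, 172868012 to 172940321, ENSMUSG00000008999), of another BMP subgroup, was 9.75 FPKM in f/f and 9.06 FPKM in d/d, with a log2 ratio of -0.10. Bmp2 and Bmp7 thus stood at nearly the same level in f/f, a Bmp7 to Bmp2 ratio of 1.01, and at a ratio of 5.97 in d/d. The 3 BMP ligands together exceeded the activin subunits 4.64-fold in f/f, and the activin subunits exceeded the BMP ligands 6.42-fold in d/d.

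The receptor genes were all expressed in both libraries and none passed the 2-fold rule. The type I receptor gene Bmpr1a (chromosome 14, 34410734 to 34503341, ENSMUSG00000021796), whose product binds Bmp2 and Bmp4, came nearest, at 25.5 FPKM in f/f and 41.9 FPKM in d/d, a log2 ratio of 0.70. It held place 2 among the 10 genes in either library. Acvr1 (chromosome 2, 58388644 to 58567157, ENSMUSG00000026836), a type I receptor used by Bmp7, was 12.6 FPKM in f/f and 16.2 FPKM in d/d, a log2 ratio of 0.34. The type II receptor gene Bmpr2 (chromosome 1, 59763400 to 59879014, ENSMUSG00000067336), which serves BMPs, was 9.85 FPKM in f/f and 8.78 FPKM in d/d, a log2 ratio of -0.15. Acvr2a (chromosome 2, 48814109 to 48903269, ENSMUSG00000052155), a type II receptor for activins and some BMPs, was 5.20 FPKM in f/f and 7.32 FPKM in d/d, a log2 ratio of 0.42. With 1 library per genotype it cannot be said whether such differences exceed the spread between animals.

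By level in f/f the order was Fst, Bmpr1a, Bmp4, Acvr1, Bmpr2, Bmp7, Bmp2, Inhbb, Acvr2a and Inhba. In d/d it was Inhbb, Bmpr1a, Bmp4, Acvr1, Bmp7, Bmpr2, Acvr2a, Inhba, Bmp2 and Fst. Places 2 to 4 were held by the same genes in both libraries. Bmpr2, Bmp7 and Bmp2 lay between 9.63 and 9.85 FPKM in f/f, and their order there has no replicate behind it.

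**Figure D2:**
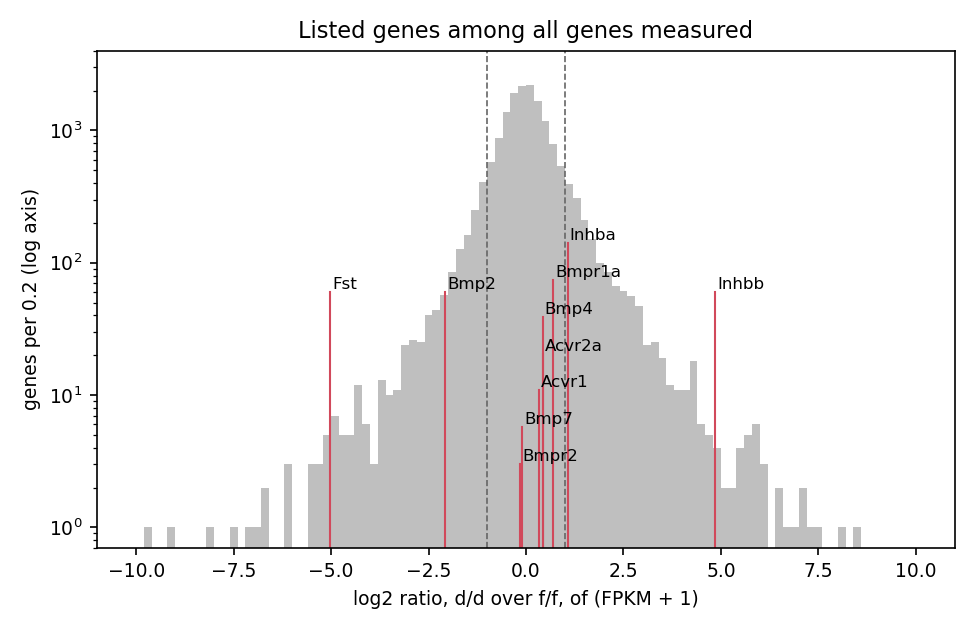
Histogram of log2 ratios (d/d divided by f/f, on FPKM + 1) for the 16263 measured genes (grey, gene number on a log axis), with red lines at the 10 listed genes, whose heights serve only to separate the labels, and dashed lines at 2-fold. Fst at -5.03 and Inhbb at 4.86 lie in the outer tails, Bmp2 at -2.08 lies below the lower dashed line, Inhba at 1.07 lies just past the upper one, and the other genes lie between.

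The genes whose pair of levels lay nearest to that of Fst were Xcl1, a chemokine of killer cells, Angptl7, an angiopoietin-like secreted protein, and Lef1, a transcription factor of the Wnt pathway. Likeness was the Euclidean distance on log2(FPKM + 1) over the 2 libraries, which shows only that the levels are alike. Xcl1 was 56.8 FPKM in f/f and 0.755 FPKM in d/d, a distance of 0.04. Angptl7 was 58.5 and 0.902 FPKM, a distance of 0.08. Lef1 was 44.6 and 1.19 FPKM, a distance of 0.46.

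Mettl14 belongs to the complex that methylates RNA, so whole transcripts and their coding sequences were searched for GGACT, a common form of the m6A motif. One transcript per gene was used, the one with the longest coding sequence in GENCODE M21, and the search was on the sense strand. Windows of 21 bases around the last coding match are shown for Fst, Bmp2 and Inhba, 3 of the 4 genes past 2-fold, with the motif in capitals and T for U.
Fst: gaagaccaGGACTacagcttt
Bmp2: ttgtatgtGGACTtcagtgat
Inhba: tcagccccGGACTgcccgtcc
The Fst match ends 32 coding bases before the stop codon, that of Bmp2 275 bases and that of Inhba 1169 bases before it. Among genes within 2-fold, the last coding match ended 122 bases before it in Bmpr2, 203 in Bmp4 and 254 in Bmp7. In Bmpr1a it ended 687 bases before the stop codon, in Acvr1 1235 and in Acvr2a 1272. The coding sequence of Inhbb held 0 matches, and its whole transcript held 3. All 10 transcripts held at least 1 match, as did 91.3% of 13593 measured protein-coding genes. Per kilobase of whole transcript, not of coding sequence, Fst had 1.08 matches, Bmp2 1.13, Inhbb 0.705 and Inhba 0.313. The median over all those genes was 1.06, with quartiles of 0.637 and 1.56. The highest density among the 10 was that of Bmp4, at 2.42 per kilobase, whose level was within 2-fold. Methylation of these sites was not analysed here.

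Of 76 other genes of the pathway, 56 were measured, and 11 of these were higher and 10 lower, 37.5% in all beside 18.4% of all measured genes. Their median log2 ratio was -0.03. Among the other BMP and growth differentiation factor (GDF) ligands, 4 of 9 were higher and 3 were lower (median 0.00), beside 10.2% and 8.28% of all measured genes. The lower ones were the most abundant in f/f, namely Gdf7 at 51.7 FPKM in f/f and 10.6 FPKM in d/d, Gdf10 at 48.9 and 5.24 FPKM, and Gdf11 at 13.3 and 4.89 FPKM. Gdf6 was higher, at 0.0777 and 6.47 FPKM, as were Bmp3 at 0.735 and 3.60 FPKM, Gdf5 at 1.51 and 5.12 FPKM, and Bmp8a at 0.0697 and 1.53 FPKM. Of these 4, Gdf6, Bmp3 and Bmp8a passed the 1 FPKM minimum through d/d alone, and Bmp8a is named beyond the rule for named genes. With a pseudocount of 5 FPKM 1 ligand of the 9 was higher and 2 were lower, beside 5.34% and 3.31% of all measured genes.

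Among secreted antagonists and binding proteins, 2 of 13 were higher in d/d and 3 were lower, beside 10.2% and 8.28% of all measured genes. Their median log2 ratio was -0.30. The lower ones were Nbl1, a BMP antagonist of the DAN family, at 274 FPKM in f/f and 99.5 FPKM in d/d, Fstl3, a follistatin relative that also binds activin, at 21.9 and 9.22 FPKM, and the BMP-binding Bmper at 7.38 and 0.394 FPKM. Bmper passed the 1 FPKM minimum through f/f alone. The chordin-like Chrdl2 was among the higher ones, at 9.65 and 29.7 FPKM. Fstl1, which carries a follistatin-like domain, was 228 FPKM in f/f and 206 FPKM in d/d, within 2-fold (named after its values were seen). Fstl3 did not pass the 2-fold rule with a pseudocount of 5 FPKM, where its log2 ratio was -0.92. The count of lower antagonists was 2 under that setting, and it was 4 with a pseudocount of 0.1 FPKM or centred on the reference genes. The shares of all measured genes that were lower were 3.31%, 11.7% and 8.81% in these 3 settings.

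The signal-carrying genes that were measured stayed within 2-fold. None of the 10 measured Smads and Smad regulators passed the 2-fold rule (median -0.03), beside 18.4% of all measured genes that did. The common partner Smad4 was 37.5 FPKM in f/f and 35.0 FPKM in d/d, Smad1 was 32.9 and 26.9 FPKM, and Smad5 was 32.1 and 23.2 FPKM. Smad2 was 23.8 and 24.5 FPKM, and Smad3 was 18.9 and 13.4 FPKM, a log2 ratio of -0.47 (named after their values were seen). Smad9 was under the 1 FPKM minimum in both libraries (also named after its values were seen). None of the 3 other measured receptors passed it either (median 0.27), with Acvrl1, an endothelial type I receptor, at 37.1 and 27.7 FPKM, the activin type I receptor Acvr1b at 8.82 and 11.9 FPKM, and Acvr2b at 1.89 and 2.48 FPKM.

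Genes known to respond to BMP in many tissues were divided. Of 10, 4 were higher and 1 was lower (median 0.46), beside 10.2% and 8.28% of all measured genes. The homeobox genes made up the higher ones, with Msx2 at 0.373 FPKM in f/f and 12.7 FPKM in d/d, Dlx5 at 10.2 and 75.1 FPKM, Dlx6 at 6.35 and 25.3 FPKM, and Msx1 at 30.7 and 67.6 FPKM. Msx2 passed the 1 FPKM minimum through d/d alone. The lower one was the transcription factor gene Atoh8, at 13.9 and 2.81 FPKM. The Id genes, the most direct of these targets, stayed within 2-fold on the (FPKM + 1) scale, with Id1 at 101 and 156 FPKM and Id3 at 121 and 61.0 FPKM, in opposite directions (named after their values were seen). Centred on the reference genes, Id3 reached -1.02. Of 4 uterine genes linked to Bmp2, 1 was lower, beside 8.28% of all measured genes, and none was higher (median -0.31). That gene was Fkbp5, a cochaperone of steroid receptors, at 29.4 FPKM in f/f and 7.11 FPKM in d/d. Another, Fkbp3, stood just inside the rule at 136 and 67.5 FPKM, and passed it at -1.04 when centred on the reference genes (named after its values were seen). Wnt4, a ligand downstream of Bmp2 in stromal decidualization, was 9.11 and 13.0 FPKM (named after its values were seen).

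**Figure D3:**
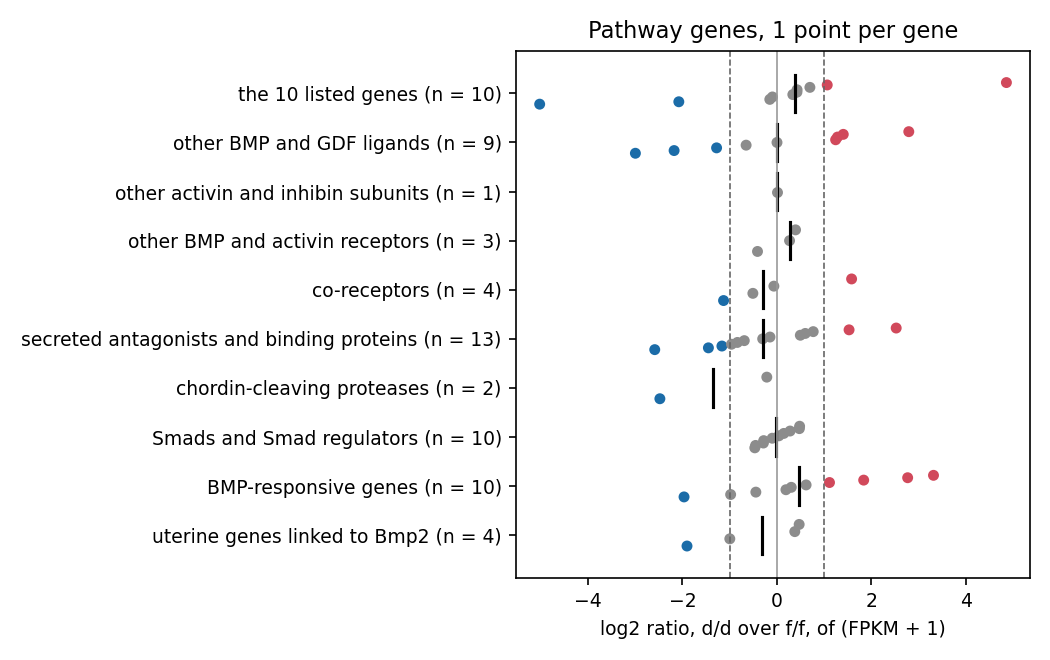
Log2 ratios (d/d divided by f/f, on FPKM + 1), with 1 point per measured gene in each pathway list, a black bar at the list's median and dashed lines at 2-fold. Red points passed the 2-fold rule as higher in d/d and blue points as lower. The 10 listed genes and the other ligands spread to both sides, and the 10 Smads and Smad regulators all lie between the dashed lines.

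The libraries also differed in markers of cell types, and in bulk tissue fewer cells of a type and less RNA per cell cannot be told apart. Beside the marker counts stand 10.2% of all measured genes that were higher and 8.28% that were lower. Of 8 epithelial markers 7 were higher in d/d (median 2.69), and their summed level was 365 FPKM in f/f and 1815 FPKM in d/d. All 10 stromal markers had ratios below 0 and 5 were lower (median -1.01), with summed levels of 4699 and 2982 FPKM. The gland markers Prss28, Prss29 and Spink1 were lower, while Foxa2, at 5.11 and 3.56 FPKM, and the other 2 of the 6 were within 2-fold. All 6 endothelial markers and all 6 smooth muscle markers had ratios below 0 (medians -1.12 and -0.84), and all 5 natural killer cell markers were lower (median -3.54). All 6 macrophage markers had ratios above 0 (median 0.95). The 3 measured fat cell markers were higher, 2 of them also with a pseudocount of 5 FPKM. The summed level of the fat cell list was 2.96 FPKM in f/f and 102 FPKM in d/d. The 3 lower gland markers and the natural killer cell markers Ncr1, Klrb1c, Gzmb and Prf1 passed the 1 FPKM minimum through f/f alone. The fat cell markers Adipoq and Cfd passed it through d/d alone. Of the 8 ovary markers, Cyp19a1, Fshr and Zp3 were listed at 0 in both libraries. The summed level of the 8 was 4.07 FPKM in f/f and 0.684 FPKM in d/d. The 2 measured ones passed the 1 FPKM minimum through f/f alone, and 1 of them, Cyp11a1, was lower. Cyp11a1 was at 2.32 and 0 FPKM, and the other, Gdf9, at 1.34 and 0.488 FPKM. The part of any cell type in the Fst, Bmp2, Inhba and Inhbb differences was not tested.

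**Figure D4:**
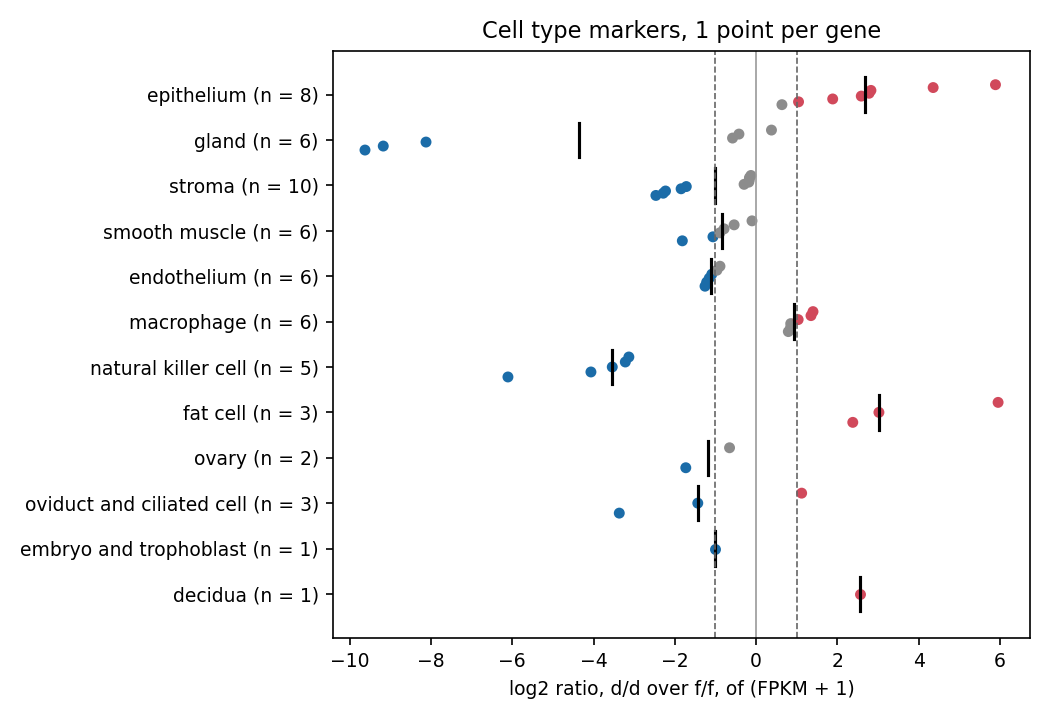
Log2 ratios (d/d divided by f/f, on FPKM + 1), with 1 point per measured marker gene, a black bar at each list's median and dashed lines at 2-fold; red points passed the rule as higher in d/d and blue points as lower. Epithelial and fat cell markers lie mostly to the right of the dashed lines, natural killer cell markers lie to the left, and stromal markers divide between 5 lower genes and 5 within 2-fold.

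Mettl14 itself was 13.6 FPKM in f/f and 3.21 FPKM in d/d, 4.25-fold lower, in the direction of the genotype labels. Depth estimated from the steps of low FPKM values was 17750000 fragments in f/f, and the d/d estimate was 20650000; both are approximate and entered no comparison. The 14 reference genes had a median log2 ratio of 0.04, and none passed the 2-fold rule. Their ratios ran from -0.40 for Sdha to 0.96 for Gusb, which stood just inside the rule at 48.7 and 95.7 FPKM.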

How the data were processed

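RNA-seq values of 2 libraries of whole mouse uterus were analysed. The authors deposited FPKM per gene, with no counts; the submitters' processing notes name HISAT2 2.2.1, Cufflinks 2.2.1 and mm10. The sources used here give neither annotation release nor strandedness, so reads of overlapping antisense genes cannot be told apart. Cufflinks estimates FPKM from an effective length and shares fragments between transcripts, and the gene value pools transcripts. From the 55483 rows, those sharing a symbol were summed, and log2((FPKM + 1) in d/d / (FPKM + 1) in f/f) was computed with pandas 2.3.3. With 1 library per genotype no test was run. A gene was counted as measured where either library reached 1 FPKM. Depth was fitted to the steps of low values in genes with 1 transcript of 2000 nt or more: 69.6% of 899 f/f values and 64.1% of 973 d/d values lay within 0.1 of a whole fragment number. Positions and lengths come from GENCODE M21, which held 55223 of the gene IDs. As a check of the code, a d/d column was simulated from the f/f values of the 16263 genes. In it 200 genes at 5 FPKM or more in f/f were set to exactly 4 times that level, without noise. The 2-fold rule must call such genes, so the 100% recovered was fixed in advance and says nothing about the differences reported here. The members, lists and motifs were chosen with earlier results of these data known. Named were all 10 genes, up to 6 genes past 2-fold per pathway list (else up to 3 by mean FPKM), marker genes, and the 3 genes nearest to Fst. Exceptions are marked, and 1 gene within the rule is not reported here. Alternatives were pseudocounts, scalings, filters and fold limits.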

Additional observations from a re-analysis of the deposited data

How the results depend on the processing

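The 2 lower genes, Fst and Bmp2, passed 2-fold under every pseudocount and scaling tried, and the count of lower genes was 2 at 1.5-fold and 4-fold as well. The count of higher genes was 2, and it was 1 with a pseudocount of 5 FPKM, with both libraries scaled to the same FPKM total, with a minimum of 5 FPKM (which left 9 of the 10 genes) and at 4-fold. In each of these Inhba was the gene that dropped out. At 1.5-fold the count of higher genes was 3, with Bmpr1a added. Of all measured genes 18.8% were higher and 17.8% lower at 1.5-fold, and 2.97% and 1.91% at 4-fold. The shares were 5.34% and 3.31% with a pseudocount of 5 FPKM, and 12.5% and 11.7% with 0.1 FPKM. They were 9.41% and 7.36% with both libraries scaled to the same FPKM total, and 9.89% and 7.22% with the minimum of 5 FPKM. The Inhbb ratio ranged from 4.18 to 5.08 and the Fst ratio from -6.00 to -3.43, and no ratio of the 10 genes changed sign. The median of the 10 ranged from 0.27 to 0.40. No paired analysis was possible because each genotype had 1 library, and for the same reason no library could be left out. At the estimated depth, and over the longest coding transcript, about 46.8 fragments stand behind the Fst level in d/d and 111 behind that of Bmp2, which limits their precision. Counts for the pathway and marker lists under the scalings and pseudocounts were tried after seeing the data, and some of them are given beside the lists.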

Other observations

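Co-receptors and chordin-cleaving proteases, which tune how much ligand reaches the receptors, included some genes past 2-fold. Of 4 measured co-receptors 1 was higher and 1 was lower (median log2 ratio -0.29), beside 10.2% and 8.28% of all measured genes. Rgma, a membrane-anchored BMP co-receptor, was 33.0 FPKM in f/f and 101 FPKM in d/d, while its relative Rgmb was 32.0 and 30.5 FPKM (Rgmb named after its values were seen). Tgfbr3, which encodes betaglycan, the protein that helps inhibin compete with activin for type II receptors, was 34.0 and 15.0 FPKM, and was within 2-fold with a pseudocount of 5 FPKM. Of the 2 measured proteases that cleave the BMP antagonist chordin, Tll1 was lower, at 6.61 FPKM in f/f and 0.365 FPKM in d/d, and Bmp1, a protease despite its name, was 47.2 and 40.6 FPKM (named after its values were seen). Tll1 passed the 1 FPKM minimum through f/f alone. Chordin itself, Chrd, was 7.07 and 3.14 FPKM, 2.25-fold lower in FPKM itself (also named after its values were seen). On the (FPKM + 1) scale its log2 ratio of -0.96 was just within 2-fold, and past it when centred on the reference genes. With 1 library per genotype these are differences between libraries.

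Of 3 decidual markers 1 was measured. Alpl, a phosphatase of the decidua that other cells also express, was 9.26 FPKM in f/f and 59.5 FPKM in d/d, while the decidual prolactin gene Prl8a2, under the 1 FPKM minimum, was at 0.425 FPKM in f/f, and d/d lists it at 0. Of the embryo markers, Cdx2 and Pou5f1 were listed at 0 in both libraries, and the single measured one, Tfap2c, was 1.40 and 0.201 FPKM. Of 3 oviduct and ciliated cell markers 1 was higher and 2 were lower, a median log2 ratio of -1.43, beside 10.2% and 8.28% of all measured genes. With a pseudocount of 5 FPKM 0 were higher and 1 was lower. With both libraries scaled to the same FPKM total 0 were higher and 2 were lower. Foxj1, the higher one, passed the 1 FPKM minimum through d/d alone. Ovgp1 and Cfap126, the lower ones, passed it through f/f alone.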
